A study of Mus musculus with 4 samples.

Results

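The regions described here were 2797 RUVBL2 peaks beside protein-coding genes that were called in only 1 of 2 chromatin immunoprecipitation (ChIP-seq) libraries, replicate 2. They were chosen by their calls in both lists, as the replicate 2 peaks that overlapped no replicate 1 peak by any base and whose midpoint lay within 3 kb of either end of a protein-coding gene in the GRCm38 RefSeq gene table. They made up 2797 of the 6403 peaks of replicate 2, or 43.7% (exact 95% interval 42.5 to 44.9), while replicate 1 had 3943 peaks. Of the 3276 peaks found in replicate 2 only, 85.4% lay at a gene end and so became members.

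Replicates 1 and 2 were RUVBL2 ChIP libraries from the hypothalamus of wild-type male C57BL/J mice aged 8 weeks, with an Input library, the same fixed chromatin without antibody, for each number. All 4 libraries shared genotype, sex, age and tissue, and no treatment is named in the labels. The tissue was fixed in 1% formaldehyde for 10 min, the RUVBL2 antibody sat on Protein A + G magnetic beads, and 15 cycles of amplification preceded reading as pairs of 150 bp. Whether numbers 1 and 2 mark separate animals, pools or repeat preparations is not stated in the labels, so the difference between the lists may be technical in part. The title of the series concerns appetite and RUVBL2 neurons of 1 hypothalamic nucleus, the paraventricular nucleus, but the chromatin came from whole hypothalamus. In such bulk chromatin, fewer cells with binding and less binding per cell cannot be told apart.

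RUVBL2 is an AAA+ ATPase that forms ring complexes with its partner RUVBL1. The rings are a core part of the chromatin remodellers INO80 and SRCAP and of the TIP60 histone acetyltransferase complex, which act on nucleosomes and on the histone variant H2A.Z, mostly around gene starts. The same ATPases also sit in the R2TP chaperone complex, which assembles other large machines such as snoRNP particles, RNA polymerases and the kinases of the mTOR family.

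A gene was called shared when a region found in both replicates lay within 3 kb of one of its ends, and added when a member did and no shared region did. Members lay near 3372 of 21779 protein-coding genes (15.5%). Of these, 237 genes also held a shared region, and 3135 genes (14.4% of all protein-coding genes) were added. Shared regions lay near 3483 genes (16.0%). The added genes were thus 47.4% of the 6618 genes with either kind of site (95% interval 46.2 to 48.6), and this share over all genes is the value beside which each gene class is read below. By the same rule, peaks of replicate 1 only lay near 740 genes without a shared region (3.40%), and 102 of the added genes (3.25%) held such a peak beside their member, so that both libraries had a peak near the gene but not at the same place.

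The promoters of 6 added genes show sequence at some of the strong members: they belong to the added genes of highest −log10 p whose peak summit fell in the RefSeq promoter window. Of the 3135 added genes, 2560 had a promoter entry and only 659 had such a summit. Stronger sites such as that beside Zfat, which had no entry, are therefore not printed. Each run is the 250 bases before the first-listed start of the gene in GRCm38.p6, on the strand of the gene. Capitals mark matches, on either strand, to a CCAAT box (CCAAT), an ETS core (CCGGAA) or a GC box (GGGCGG).
Fgfr1op2: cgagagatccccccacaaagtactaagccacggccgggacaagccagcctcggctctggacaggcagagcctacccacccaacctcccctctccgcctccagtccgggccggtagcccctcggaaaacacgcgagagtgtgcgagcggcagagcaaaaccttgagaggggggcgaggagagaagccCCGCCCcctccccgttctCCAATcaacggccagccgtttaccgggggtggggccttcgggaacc
Calm3: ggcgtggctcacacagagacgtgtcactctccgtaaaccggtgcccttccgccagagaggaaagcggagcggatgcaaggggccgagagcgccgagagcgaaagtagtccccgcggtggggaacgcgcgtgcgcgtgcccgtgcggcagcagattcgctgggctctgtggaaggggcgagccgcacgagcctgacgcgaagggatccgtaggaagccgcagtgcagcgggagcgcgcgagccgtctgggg
Yme1l1: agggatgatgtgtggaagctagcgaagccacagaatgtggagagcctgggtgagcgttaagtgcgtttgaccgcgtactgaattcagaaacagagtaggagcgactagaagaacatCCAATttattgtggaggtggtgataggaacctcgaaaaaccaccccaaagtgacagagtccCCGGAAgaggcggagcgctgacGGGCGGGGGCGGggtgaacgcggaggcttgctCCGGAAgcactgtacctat
Kdm5c: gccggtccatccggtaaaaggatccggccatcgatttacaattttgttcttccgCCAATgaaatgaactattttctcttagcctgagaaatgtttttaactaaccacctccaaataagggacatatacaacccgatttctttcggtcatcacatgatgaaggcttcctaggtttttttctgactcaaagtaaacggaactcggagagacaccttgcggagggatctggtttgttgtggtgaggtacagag
Pank2: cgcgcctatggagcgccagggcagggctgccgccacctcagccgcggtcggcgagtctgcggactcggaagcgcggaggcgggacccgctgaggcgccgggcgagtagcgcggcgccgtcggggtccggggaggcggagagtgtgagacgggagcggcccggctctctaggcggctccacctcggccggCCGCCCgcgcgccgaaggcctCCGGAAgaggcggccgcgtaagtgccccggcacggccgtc
Sgo1: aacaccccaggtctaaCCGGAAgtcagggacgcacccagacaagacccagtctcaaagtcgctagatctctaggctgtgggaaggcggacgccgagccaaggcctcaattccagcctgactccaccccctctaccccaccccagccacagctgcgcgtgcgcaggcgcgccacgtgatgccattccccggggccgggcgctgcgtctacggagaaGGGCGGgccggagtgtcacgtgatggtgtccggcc

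These runs stand at chr6:146577653-146577902 (plus strand) for Fgfr1op2, chr7:16924033-16924282 (minus) for Calm3, chr2:23156255-23156504 (plus) for Yme1l1, chrX:152232977-152233226 (plus) for Kdm5c, chr2:131262589-131262838 (plus) for Pank2 and chr17:53689316-53689565 (minus) for Sgo1. The summits lay between 245 bp (Fgfr1op2) and 29 bp (Kdm5c) before those starts. The gene rows of Yme1l1, Pank2 and Sgo1 begin upstream of the first-listed start. For these genes the run and the summit thus lay inside the annotated gene. Yme1l1, which encodes a protease of the inner mitochondrial membrane, held 2 ETS cores and 2 GC boxes. Calm3, a calmodulin gene, held no match to any of these 3 motifs in the 250 bases.

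The promoters of 3 added neuronal genes are printed too, chosen after their values were seen. They are Tubb3, the neuronal beta-tubulin, Rab3a, a GTPase of synaptic vesicles, and Gria4, an AMPA receptor subunit.
Tubb3: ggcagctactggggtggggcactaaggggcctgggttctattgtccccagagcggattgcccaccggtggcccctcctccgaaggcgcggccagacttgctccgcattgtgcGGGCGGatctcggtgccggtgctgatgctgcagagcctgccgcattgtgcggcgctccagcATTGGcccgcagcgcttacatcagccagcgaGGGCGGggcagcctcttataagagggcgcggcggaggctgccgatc
Rab3a: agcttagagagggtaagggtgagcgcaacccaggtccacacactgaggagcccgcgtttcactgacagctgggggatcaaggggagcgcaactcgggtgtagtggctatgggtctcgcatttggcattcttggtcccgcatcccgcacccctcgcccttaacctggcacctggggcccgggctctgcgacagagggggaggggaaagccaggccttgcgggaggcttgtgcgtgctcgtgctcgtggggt
Gria4: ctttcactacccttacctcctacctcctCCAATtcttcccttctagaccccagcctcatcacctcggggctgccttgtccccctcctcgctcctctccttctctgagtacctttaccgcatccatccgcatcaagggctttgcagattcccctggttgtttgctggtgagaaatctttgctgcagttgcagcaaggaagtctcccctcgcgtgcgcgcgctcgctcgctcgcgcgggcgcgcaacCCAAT

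They stand at chr8:123411303-123411552 (plus strand), chr8:70754852-70755101 (plus) and chr9:4796235-4796484 (minus). The summits lay 137 bp before the start of Tubb3, 67 bp before that of Rab3a and 23 bp inside Gria4. None of the 3 runs held an ETS core, and Rab3a held none of the marked motifs. The runs of Fgfr1op2, Calm3 and Kdm5c above held no ETS core either, while those of Yme1l1, Pank2 and Sgo1 did. These runs are too few to tell whether the groups differ.

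Members had lower folds than the shared sites of the same library, as the choice of peaks missing from the other library would favour, so these values describe the members and test nothing. The fold enrichment at the summit is relative to the local background, a value of the authors' peak caller. Members had a median fold of 4.39 (range 2.46 to 12.7), and the replicate 2 gene-end peaks that overlapped a replicate 1 peak, by coincidence also 2797, had a median of 5.37 (range 2.32 to 34.5). The summit pileup, the number of fragments stacked at the highest point, had a median of 19 in members and 25 in the overlapping peaks. A single peak with a pileup of 19 has an exact Poisson 95% interval of 11.4 to 29.7, and one with 25 has 16.2 to 36.9. These intervals, and the binomial ones given with shares, take in no error beyond counting, and amplified reads without molecular tags are not independent molecules.

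The members ran through the whole replicate 2 list but thickened towards its weak end. With the list ranked by −log10 p and split into 4 equal parts, members were 18% of the peaks in the strongest part, then 41.0% and 54.7%, and 61.1% in the weakest. Only 119 members (4.25%) were among the 1000 strongest peaks, and 1459 (52.2%) ranked below 3943, the length of the replicate 1 list, against 610 of the 2797 overlapping peaks (21.8%). Median width was 448 bp in members and 630 bp in overlapping peaks. The distance to the nearest replicate 1 peak was large for most members, with a median of 89136 bp, and 127 members (4.54%) had one within 1 kb. The gene-end peaks of replicate 1 only, 679 in number, had, in their own list, a median pileup of 14 and a median fold of 4.32.

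**Figure D1:**
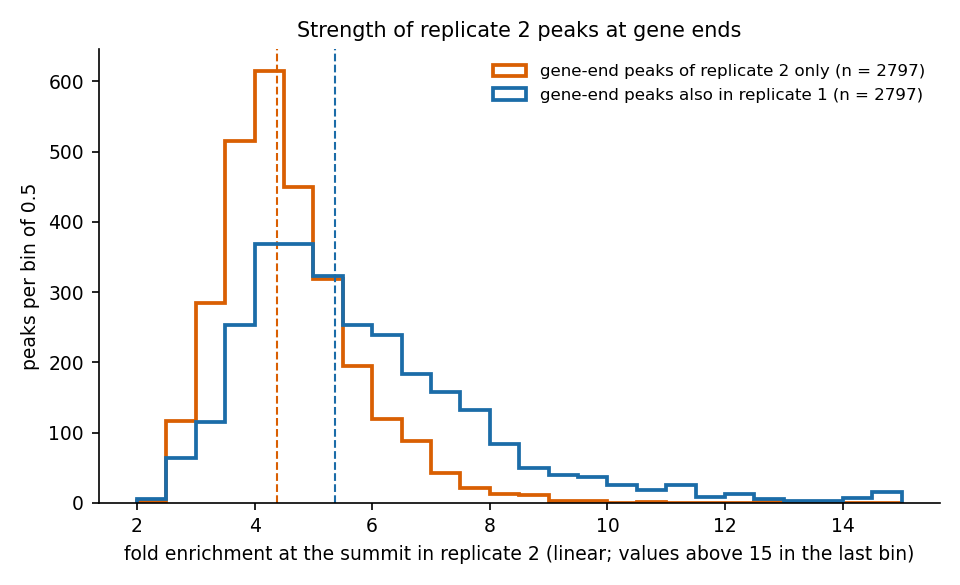
Histogram of fold enrichment at the summit (x axis, linear, no unit) against the number of replicate 2 gene-end peaks per bin (y axis), for the 2797 members and the 2797 peaks that overlap a replicate 1 peak; dashed lines are the medians, 4.39 and 5.37. The 2 histograms overlap over most of their range, and the long right tail belongs to the overlapping peaks.

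Although the rule used both ends of a gene alike, the members lay at the starts. The nearest gene end was the start for 2208 of the 2275 members whose nearest gene has a strand in the promoter table (97.1%, 95% interval 96.3 to 97.7). The same share was 98.2% (97.6 to 98.7) for shared regions at gene ends and 97.4% (95.7 to 98.6) for gene-end peaks of replicate 1 only. Another 522 members (18.7%) had a nearest gene without an entry in that table and were left out of this count. The summits of 86.9% of members (85.4 to 88.2) were within 500 bp of a start, against 91.4% of the replicate 2 gene-end peaks that overlapped a replicate 1 peak (90.2 to 92.5) and 85.1% of replicate 1 only peaks (81.8 to 88.0).

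Summits leaned into the gene. Within 2 kb of a start, 69.4% of member summits and 71.3% of those of overlapping peaks lay downstream of it, with a median position of +96 bp and +105 bp. Many members served more than 1 gene, since 711 of them (25.4%) had the ends of at least 2 coding genes within 3 kb, against 26.8% of shared regions. Added genes were about as long as shared ones, with median lengths of 23462 and 23800 bp, and genes with neither kind of site had a median of 14657 bp.

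**Figure D2:**
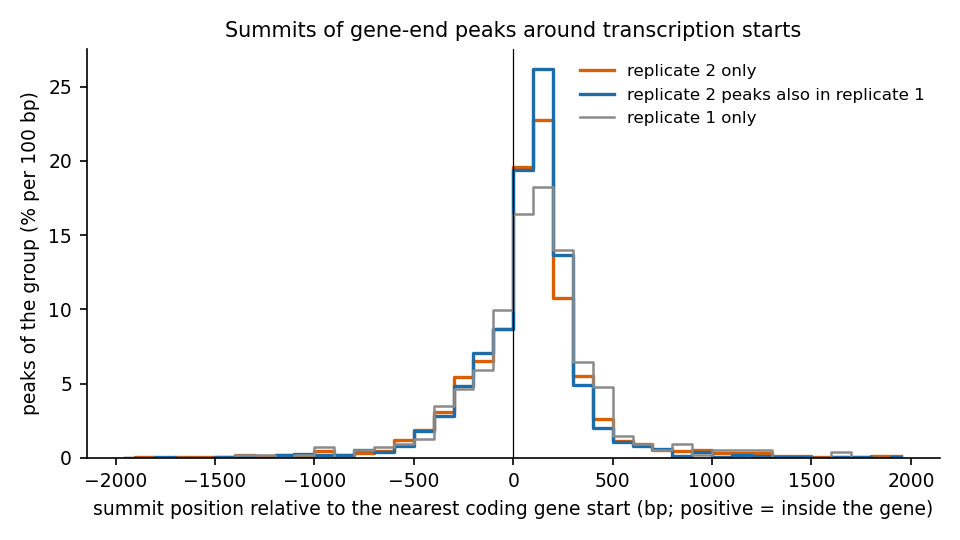
Summit position relative to the nearest coding gene start (x axis, bp, positive inside the gene) against the percent of each group's peaks per 100 bp (y axis), for members, replicate 2 gene-end peaks that overlap a replicate 1 peak, and gene-end peaks of replicate 1 only. All 3 curves peak just inside the gene start, and 86.9% of member summits are within 500 bp of a start.

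The 20 members of highest −log10 p that added a gene, called the strongest here and in each class below, stood near 25 genes of mixed function. A member that added no gene, and so stands outside the 20, had the highest −log10 p, 69.8 against 40.9 beside Zfat. The top site of the 20, at chr15:68258092-68259122 beside Zfat, which encodes a zinc finger and AT-hook protein, had a fold of 12.7 (95% interval 9.38 to 16.8) with a pileup of 47. In order of −log10 p, next came chr13:41249756-41250410 at the start of Smim13, a small membrane protein gene, with a fold of 10.8, and a site beside the zinc finger gene Zfp438, with 8.70. A single peak at chr6:146577484-146578590, with a fold of 8.33, covered the divergent starts of Fgfr1op2 and Ints13, a subunit of the Integrator complex that cuts nascent RNA. Calm3, one of the calmodulin genes, had a fold of 7.24 on the largest pileup of the 20, 50 fragments.

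Some of the 20 stood at genes of mitosis, telomeres or chromatin. The peak beside Mastl, the Greatwall kinase of mitotic entry, and Yme1l1 had a fold of 9.42, and that of Terf2, a telomere-binding protein, had 9.88. Sgo1, the shugoshin that protects centromeric cohesin, had 8.19. Kdm5c, a histone H3K4 demethylase on the X chromosome, had 9.33 (6.51 to 13.0). A peak inside Cspp1, a centrosome gene, had 8.65. Its midpoint lay 1882 bp from the nearer end of Cspp1. It was 1839 bp from that of Cops5, the catalytic subunit of the COP9 signalosome. This peak was the only one of the 20 whose genes also held a replicate 1 peak, 1802 bp away.

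Others stood at genes of mitochondria, RNA and metabolism. Atp5c1, a subunit of ATP synthase, shared a peak of fold 7.41 with Kin, and Mrps36, named as a mitochondrial ribosomal protein, had 7.91. The mitochondrial coiled-coil gene Ccdc90b had 8.26, Pank2, the pantothenate kinase of coenzyme A synthesis, had 9.33, and Ip6k1, an inositol phosphate kinase, had 8.47. Ddx18, an RNA helicase, had 8.47, while Nop53, a ribosome assembly factor, and Ehd2 shared a peak of 8.41. Xkr6 with 9.88, Fam193a with 9.0 and the solute carrier Slc35e2 with 8.27 completed the set.

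Gene classes were counted over 58 lists, 15 of named genes and 43 drawn by symbol pattern, which together held 5507 genes and 700 of the added genes. In 21 lists the added genes outnumbered the shared ones, and 6 of these lists had no shared gene. In 31 lists they were fewer, and the rest had equal counts or no bound gene. The 95% interval of the added share of bound genes lay wholly above the 47.4% of all genes in 2 lists, wholly below it in 6, and spanned it in 46, while 4 lists had no bound gene. Genes in a list can share a peak, so these intervals are narrower than independent sites would give.

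**Figure D3:**
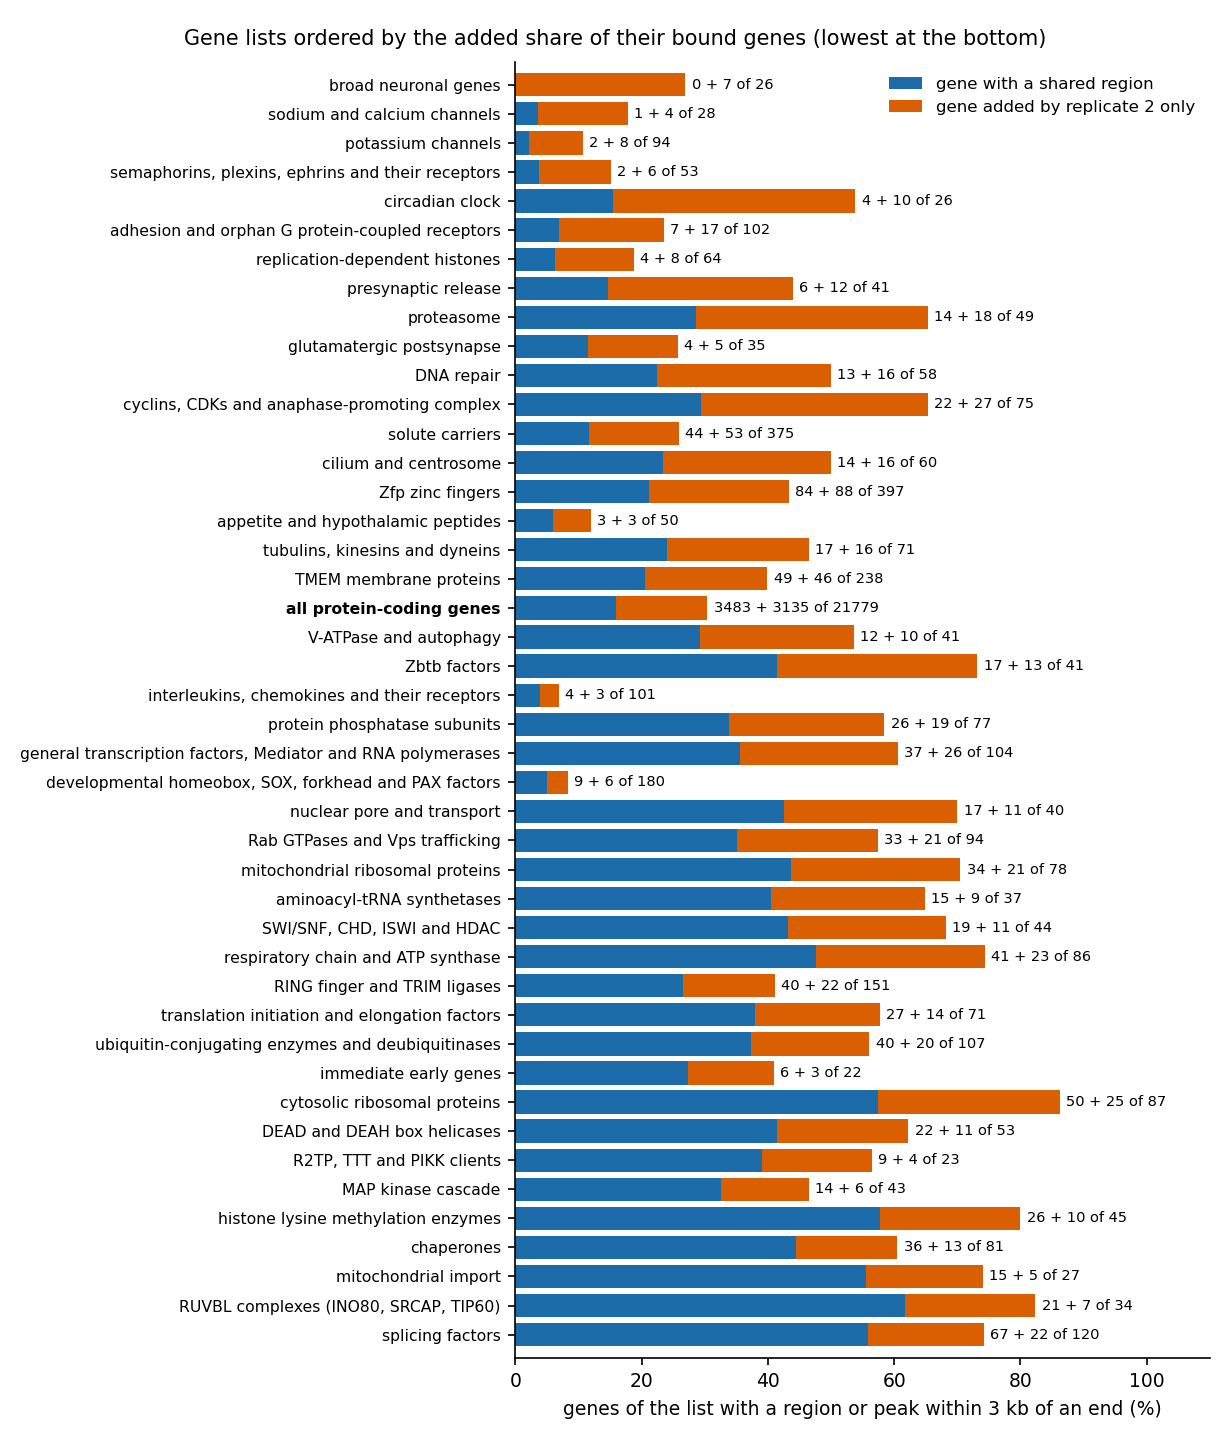
Percent of each gene list's genes (x axis) with a shared region and, stacked on it, with a site of replicate 2 only, for the lists with at least 5 bound genes and for all protein-coding genes (bold), ordered by the added share of their bound genes. Lists of splicing, chaperone and RUVBL complex genes are at the low end of the added share, and lists of neuronal genes, ion channels and receptors are at the high end with few shared genes.

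The remodellers that RUVBL2 itself belongs to were mostly shared already. Of 34 genes of INO80, SRCAP and TIP60, 21 were shared and 7 were added, an added share of 25% of bound genes (10.7 to 44.9). The 4 strongest added ones were Actr5, an actin-related subunit of INO80, with a fold of 4.78 (3.25 to 6.79), Uchl5, its deubiquitinase, with 5.35, Actb with 5.49, and H2az1, the H2A.Z histone itself, with 4.66. H2az1 also held a peak of replicate 1 only, 2694 bp from the member. Ruvbl1, the partner ATPase, was added by a site of fold 3.08 that lay 2621 bp from its stop end. Ruvbl2 held no site, and the nearest replicate 2 peak was 26340 bp away. Of 23 genes of the R2TP and TTT chaperones and their client kinases, 9 were shared and 4 were added. The 4 were Prkdc, the DNA-dependent protein kinase, with a fold of 6.24, Mtor with 5.47, the prefoldin gene Pfdn2 with 5.0, and Uxt, a prefoldin-like subunit, with 4.11. The Mtor site lay at its stop end, nearer to Exosc10.

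RNA processing and protein synthesis formed the largest block of shared genes, and the members filled in many of the rest. Of 120 splicing factors, 67 were shared and 22 added, an added share of 24.7% (16.2 to 35.0), the lowest of any list with over 50 bound genes. Prpf31 and Hnrnpl had folds of 6.86, Rbm4b had 6.57 and the cold-inducible Rbm3, on the X chromosome, had 6.37. Of 87 cytosolic ribosomal proteins, 50 were shared and 25 added (33.3%, 22.9 to 45.2), led by Rpl22l1 with 6.67, Rpl10a with 7.96, Rps28 with 5.89 and Rps26 with 6.15. Together the 75 bound genes were 86.2% of that list. As a share of the list, the added ribosomal genes were 28.7% (19.5 to 39.4), above the 14.4% over all genes, so a low share of bound genes went with a high share of the list.

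The mitochondrial lists were of the same form. Of 86 genes of the respiratory chain and ATP synthase, 41 were shared and 23 added (35.9%), and Sdha, a subunit of succinate dehydrogenase, had the highest fold of these with 8.45 (5.90 to 11.8). Of 78 mitochondrial ribosomal proteins, 34 were shared and 21 added (38.2%), with Mrps5 at 7.78. Of 27 genes of mitochondrial import, 15 were shared and 5 added (25%), with the channel gene Tomm40 at 5.80. Among 71 translation factors, 27 were shared and 14 added, and the elongation factor Eef2 had a fold of 7.52. Among 37 aminoacyl-tRNA synthetases 15 were shared and 9 added, all with folds under 5.

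Chaperones, chromatin enzymes and ubiquitin enzymes also stood below the value over all genes. Of 81 chaperones, 36 were shared and 13 added (26.5%, 14.9 to 41.1), with Dnajb2, a co-chaperone of the DNAJ family, at a fold of 7.30. Of 45 enzymes of histone lysine methylation, 26 were shared and 10 added (27.8%, 14.2 to 45.2), and the 4 added ones of highest −log10 p were all demethylases, Kdm5c, Kdm4d with 6.53, Kdm6b with 4.73 and Kdm4b with 5.54. Of 107 ubiquitin-conjugating enzymes and deubiquitinases, 40 were shared and 20 added (33.3%, 21.7 to 46.7). Usp9x and Usp11, a pair of deubiquitinases on the X chromosome, both had a fold of 6.31.

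The added share was above the value over all genes, though with intervals that spanned it, in the lists for protein breakdown, the cell cycle and DNA repair. Of 49 proteasome genes, 14 were shared and 18 added (56.2%, 37.7 to 73.6), with the subunits Psmd6 at 6.30, Psmb5 at 6.82, Psmc6 at 6.41 and Psmd12 at 5.0. Of 75 cyclins, cyclin-dependent kinases and anaphase-promoting complex genes, 22 were shared and 27 added (55.1%, 40.2 to 69.3). These were led by Anapc13 with 6.24, Cdk11b with 6.69, Anapc16 with 5.65 and Cdc42, a small GTPase of the cytoskeleton caught by its symbol, with 6.86. Of 58 DNA repair genes, 13 were shared and 16 added (55.2%, 35.7 to 73.6), and the nucleotide excision genes Ercc4 and Ercc1 had 6.11 and 5.40. Fance, a gene of the Fanconi anaemia pathway, was counted through a peak of fold 7.96 at its stop end that sat on the start of Rpl10a.

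The largest family, the Zfp zinc fingers, split almost evenly, with 84 shared and 88 added of 397 genes (51.2%, 43.4 to 58.8). After Zfp438 the strongest were Zfp661 with 7.78, Zfp119a with 8.50 and Zfp426 with 7.52. Solute carriers had 44 shared and 53 added of 375 (54.6%, 44.2 to 64.8). The added ones were 14.1% of the list, at the 14.4% over all genes, and included Slc12a2, the chloride importer, with 7.60, and Slc2a1, the glucose transporter of the blood-brain barrier, with 5.99.

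The neuronal lists held few shared sites, and most of their bound genes were added by the members. Over the 8 neuronal lists of synapse, channel, glutamate and GABA receptor and broad neuronal genes joined, a union chosen after the lists had been counted, 14 of 266 genes were shared and 39 were added. The added share was 73.6% of bound genes (59.7 to 84.7), against 31.8% (27.5 to 36.3) in a union of the RNA, translation, respiration and chaperone lists, with 307 shared and 143 added of 640. The difference lay in the shared genes, since the 39 added were 14.7% of the neuronal genes (10.6 to 19.5), at the 14.4% over all genes, and the shared ones were 5.26% against 16.0%. The neuronal sites were also weak, with a median fold of 4.11 and a pileup of 16, beside 4.44 and 20 over all added genes. Under the alternatives given at the end, the neuronal share fell as low as 55%, below its interval here. It was above the share over all genes in each of them. Of the 39 genes, 34 were the coding gene nearest to their peak.

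Broad neuronal genes gave the most uneven count of the lists with at least 5 bound genes. None of 26 was shared and 7 were added (100% of bound genes, 59.0 to 100), which is 26.9% of the list (11.6 to 47.8). Tubb3, whose promoter is printed above, had a fold of 5.75 (3.80 to 8.39) on a pileup of 25, at 76 bp from its start. Stmn3, a microtubule regulator, had 5.09 and the heavy and medium neurofilament genes Nefh and Nefm had 4.94 and 4.11. Ina, a neuronal intermediate filament gene, and Stmn2, outside the naming rule and named after their values were seen, had folds of 3.76 and 3.53. The peak counted for Nefh lay nearer to the start of Ap1b1.

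The release machinery of the presynapse had 6 shared and 12 added of 41 genes (66.7%, 41.0 to 86.7), and the added ones were 29.3% of the list (16.1 to 45.5). The shared genes included Erc1, Nsf, Ppfia3, Sv2a and Vamp2, named after their values were seen. The strongest added gene was Rims2, an active zone scaffold, with a fold of 6.13 (4.01 to 9.0) at chr15:39197920-39199146. Napa, the alpha-SNAP that recycles SNARE complexes, had 4.62, by a site at its stop end near Kptn. Ppfia4, a liprin-alpha scaffold, had 4.94 and Rab3a had 4.43 (2.75 to 6.79). The other 8 had folds no lower than 3.03. When the replicate 2 list was cut to the length of the replicate 1 list, 8 bound genes remained, 3 of them added, which is 37.5% beside 36.7% over all genes under that cut, so the high share rested on the weaker sites.

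On the receiving side of the synapse, the glutamatergic list had 4 shared and 5 added of 35 genes (55.6%, 21.2 to 86.3). The added ones were 14.3% of the list (4.81 to 30.3), near the 14.4% over all genes. The shared genes were Dlg1, Dlg2, Grik5 and Shank1. Homer1, a postsynaptic scaffold and immediate early gene, had the strongest added site with a fold of 5.93 (4.09 to 8.33), and Cacng2, the AMPA receptor partner stargazin, had 4.94. Grin1, the obligatory NMDA receptor subunit, was added with 4.39 (2.58 to 7.06) on 15 fragments at chr2:25318810-25319148, 208 bp from its start. Gria4 had 4.11 on 14 fragments. Of 18 GABAergic genes none was shared and 2 were added, the stronger being Gabbr1, a GABA-B receptor subunit, with 4.39.

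Ion channels and receptors followed the same order at low counts. Of 94 potassium channels, 2 were shared and 8 added, which is 8.51% of the list (3.75 to 16.1) and below the 14.4% over all genes. Kcnj14 had 6.46, through a peak nearer to Cyth2, Kcna6 had 4.66, and Kcnj10 had 3.84 at its stop end. Of 28 sodium and calcium channels, 1 was shared, and Cacna1b (4.94), Cacna2d1 (4.66), Cacna2d2 (4.66) and Scn8a (3.84) were added, which is 14.3% of the list. Adhesion and orphan G protein-coupled receptors, a list drawn by symbol pattern only, had 7 shared and 17 added of 102 (70.8%, 48.9 to 87.4). The added ones were 16.7% of the list (10.0 to 25.3), near the 14.4% over all genes, and the shared ones were 6.86%. Gpr137 had a fold of 6.85, Gpr45 had 5.72, Gpr173 had 6.03 and Gpr62 had 4.64. Of those 17, 12 were the coding gene nearest to their peak.

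**Figure D4:**
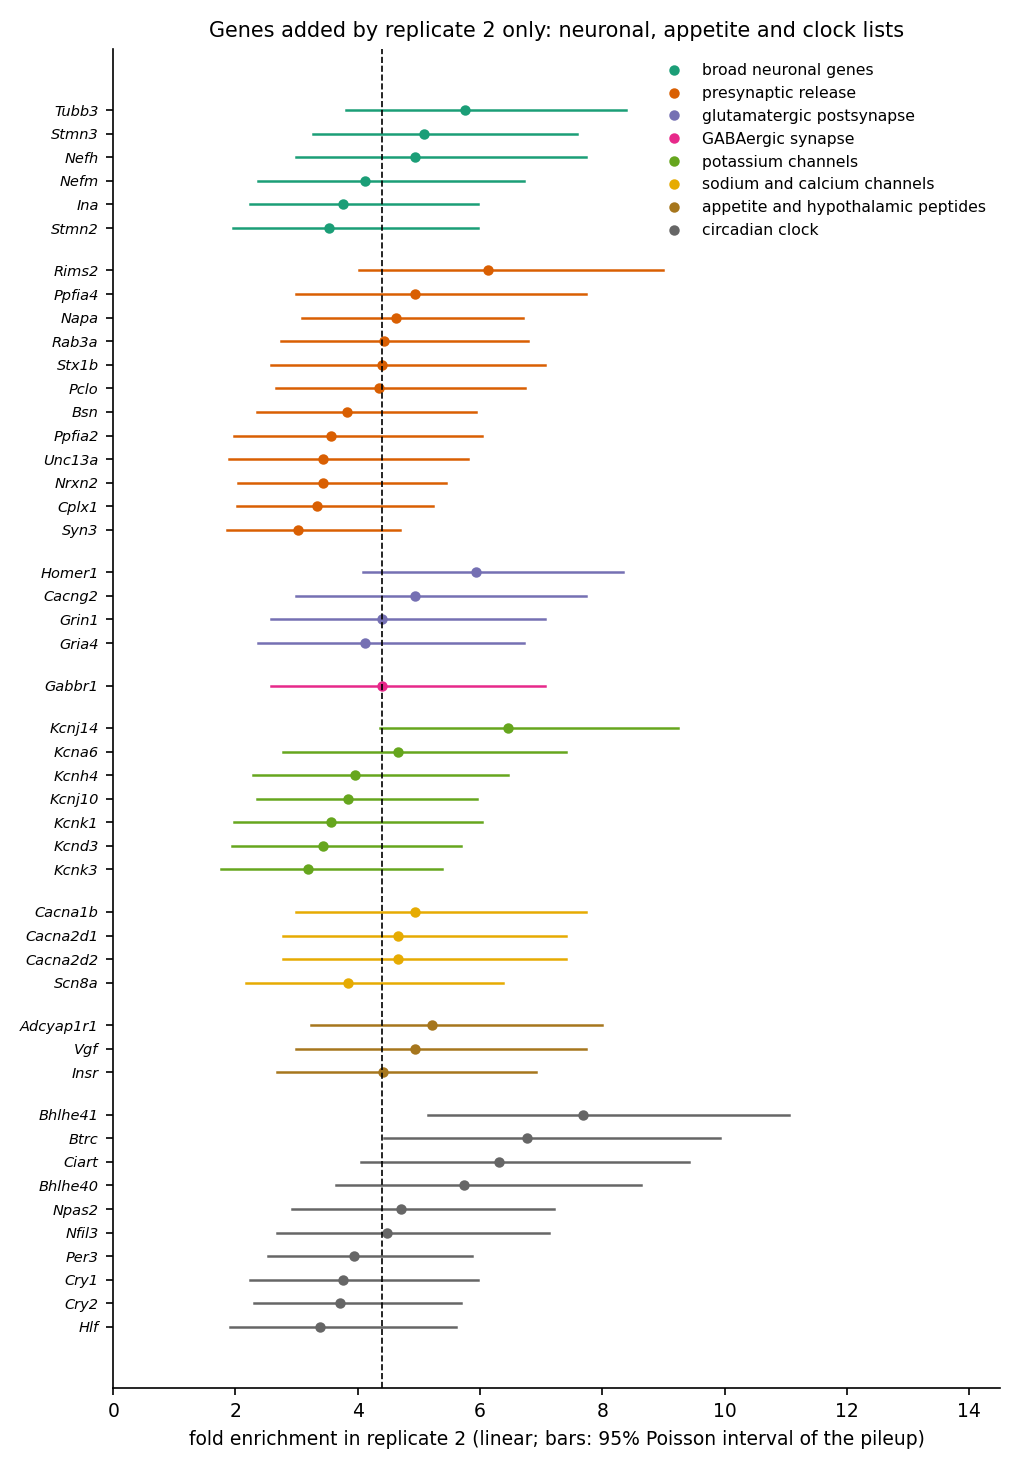
Fold enrichment in replicate 2 (x axis, linear) of added genes of the neuronal, appetite and clock lists, 1 gene per line; points are the authors' fold and bars the 95% Poisson interval of the pileup with the background held fixed, and the dashed line is the member median of 4.39. Bhlhe41 of the clock list has the highest fold, 7.68, and most neuronal genes lie between 3 and 6 with overlapping intervals.

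Clock genes also had more added than shared sites. Of 26 genes, 4 were shared, among them Clock, Csnk1d and Nr1d2, and 10 were added (71.4%, 41.9 to 91.6), which is 38.5% of the list (20.2 to 59.4), beside 36.7% of the proteasome list (23.4 to 51.7). Bhlhe41 and Bhlhe40, repressors of the CLOCK and BMAL1 pair, had folds of 7.68 (5.16 to 11.1) and 5.74 (3.65 to 8.63). Btrc, the ubiquitin ligase subunit that marks PER proteins for breakdown, had 6.76, and Ciart, another repressor of the clock, had 6.31. The other 6 had folds between 3.38 and 4.70 and, named after their values were seen, were Npas2, Per3, Nfil3, Cry2, Cry1 and Hlf. Bhlhe40 also held a peak of replicate 1 only, 405 bp from the member, and was the only one of the 10 with one.

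Genes of appetite and hypothalamic peptides were scarce in both sets. Of 50, Irs2, Ntrk2 and Pomc were shared and 3 were added, or 6% of the list (1.25 to 16.5) beside 14.4% over all genes. The 3 were Adcyap1r1, the PACAP receptor, with a fold of 5.21 (3.24 to 8.00), Vgf, a neurosecretory precursor, with 4.94, and Insr, the insulin receptor, with 4.41. No member or shared region lay near Mc4r, Sim1, Oxt, Avp, Crh, Trh, Agrp, Npy, Lepr, Bdnf, Camk2a or Snap25. The nearest replicate 2 peak was 10530 bp away for Oxt, 16631 bp for Avp and 25462 bp for Agrp, and over 100 kb away for Crh, Bdnf, Camk2a, Sim1, Lepr, Mc4r and Npy. Of 22 immediate early genes, 6 were shared and 3 added, Homer1, Fosb with 5.01 and Ier2 with 3.69.

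Markers of other cells of the tissue were nearly empty. Over the lists of astrocytes, microglia, endothelial and mural cells, oligodendrocyte lineage and ependymal cells, 1 of 73 genes was shared and 3 were added. The added ones were 4.11% of these genes (0.856 to 11.5), beside 14.4% over all genes. They were 75% of the few bound genes (19.4 to 99.4), as high a share as in the neuronal union. The shared one was Col23a1. The added ones were Slc1a2, the glutamate transporter of astrocytes, with a fold of 5.09, Cnp, a myelin enzyme, with 3.77, and Aldoc, with 3.31 at its stop end beside Pigs. None of 14 microglial and none of 14 endothelial and mural genes held a site, which allows a share of up to 21.4% in each. Sites at a gene do not measure its expression, so these counts do not give the cell types in which RUVBL2 was bound.

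Several large gene families gained few sites or none, although the members are the weaker sites. None of 1109 olfactory receptors held a shared or added site, which allows a share of up to 0.271%, and none of 57 clustered protocadherins did (up to 5.26%). Of 350 vomeronasal receptors only Vmn1r4 was added, with a fold of 4.34, and of 109 keratin genes only Krt1, with 5.49. Of 180 developmental homeobox, SOX, forkhead and PAX factors, 9 were shared and 6 added, and the 4 strongest of the 6 were forkhead genes, Foxm1, Foxn2, Foxn3 and Foxk1.

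The X chromosome held more members than shared regions. There were 45 members on it (1.61%, 1.18 to 2.15) and 13 of 2784 shared gene-end regions (0.467%, 0.249 to 0.797), while it carries 963 of the coding genes (4.42%). Of 65 bound genes on X, 50 were added (76.9%, 64.8 to 86.5), against 3084 of 6552 on the autosomes (47.1%, 45.9 to 48.3). The mice were male, so X is present as a single copy. The part of that copy number in the result was not tested. Among the added X genes were Kdm5c, Rbm3, Usp9x, Usp11 and Uxt, and also Phf8, another histone demethylase, with a fold of 8.23.

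The promoters of added genes were close in composition to those of shared genes and unlike the rest. In the 300 bases around the start, 250 before and 50 after, median GC was 61.7% in 2560 added genes, 63% in 2873 shared genes and 52.7% in 12059 genes with neither. The ratio of observed to expected CpG had medians of 0.795, 0.850 and 0.361.

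For several of the 7 motifs counted, added promoters also stood near shared ones and apart from the rest. On either strand, the GC box GGGCGG was in 66.6% of added, 68.7% of shared and 36.7% of other promoters, and 46.3% of all promoters. The ETS core CCGGAA was in 31.2%, 33.4%, 13.1% and 19.1%, in the same order. The CRE palindrome TGACGTCA was in 4.22%, 4.18%, 1.51% and 2.34%, and the NRF1 palindrome in 2.50%, 2.23%, 0.854% and 1.32%. The TATA element TATAAA was in 5.94%, 5.12%, 16.9% and 13.3%. CCAAT was in 38.3% of added (36.4 to 40.2), 34.3% of shared (32.5 to 36.1), 40.3% of other promoters (39.4 to 41.2) and 39.0% of all, so the added promoters stood nearer to the rest there. No motif is contained in another of the 7, though the matches of GC-rich ones can overlap on the sequence. Of the 25 added genes of the neuronal union with a promoter entry, a set chosen after its values were seen, 2 held an ETS core (8%, 0.984 to 26.0) and 16 a GC box (64%, 42.5 to 82.0).

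Added and shared promoters also stood apart in the 11-base element known as the YY1 motif, whose letters are the capitals in the stretches below. It was in 1.25% of added promoters (0.857 to 1.76), 3.59% of shared ones (2.94 to 4.33), 0.290% of the rest and 0.972% of all. Most of its matches began from 20 bp before the start onward, 22 of 34 in added genes and 78 of 105 in shared ones. The median position was +12.5 bp in the 34 matches of 32 added genes. It was +13 bp in the 105 matches of the 102 shared genes that had a replicate 2 peak centred within 3 kb. The stretches, chosen after the counts were seen, are those of the strongest replicate 2 sites in each set, without Slc39a7, which shares its stretch with Rxrb, and with the motif in capitals on the strand of the gene. The first 3 are from added genes and the last 3 from shared genes.
Ip6k1: cctcggctgGCCGCCATCTTgttgttgat
Nup88: tgttagttcAAGATGGCGGCtgccgtggg
Phf8: gagcctcgtAAGATGGCGGCgggctcgtc
Rxrb: gtctgtacaAAGATGGCGGCcgcgccggt
Cnot3: gcctccgccGCCGCCATCTTggaccgggc
Pcif1: gccacactcAAGATGGCGGCgcggccgtg

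They stand at chr9:108002625-108002653 (plus strand), chr11:70969935-70969963 (minus), chrX:151520678-151520706 (plus), chr17:34031808-34031836 (plus), chr7:3645274-3645302 (plus) and chr2:164879301-164879329 (plus), in the order printed. In these stretches the motif began between 58 bp before the start, in Pcif1, and 19 bp after it, in Nup88. It was read in reverse in Ip6k1 and Cnot3. Phf8 held another match, at -158 bp from its start, which is not printed. The sites at the added genes had folds of 8.47, 8.79 and 8.23, and those at the shared genes 15.1, 11.3 and 10.9. Nup88 encodes a nuclear pore protein, Rxrb a retinoid receptor, Cnot3 a subunit of the CCR4-NOT deadenylase and Pcif1 an enzyme that methylates mRNA caps.

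**Figure D5:**
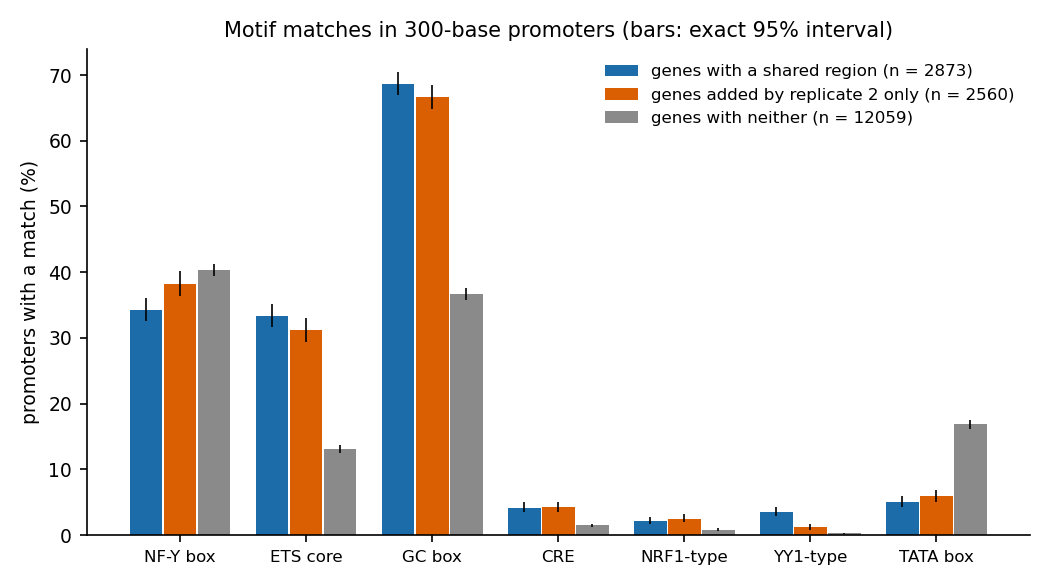
Percent of 300-base promoters (y axis) with at least 1 match to each of 7 motifs (x axis, by name), for added genes, shared genes and genes with neither; error bars are exact 95% intervals. Added and shared genes stand close together and apart from the rest for the GC box and the ETS core, and apart from each other for the NF-Y box (CCAAT) and for the YY1 motif, with 1.25% against 3.59%.

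The sites at the edges of the rule were the following. The members farthest from a gene end were those of Rab6b, at 2972 bp with a fold of 3.83, and Chadl, at 2962 bp with 3.70. The first peaks left out lay 3012 bp from Mapt with 4.23 and 3016 bp from Midn with 5.04. The members beside Inca1 (3.66) and Gapdh (3.48) touched a replicate 1 peak without sharing a base. The peaks beside Rgl2 (4.44) and Zfp609 (5.15), which overlapped one by 2 and 4 bp, counted as shared.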

How the data were processed

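Per the submitters' processing notes, reads were handled on GRCm38 with MACS2 2.1.0, Bowtie2 2.3.4.1, Trimmomatic 0.33, bcl2fastq 2.17 and ChIPseeker. The settings of these tools, like the control for peak calling, were not given in the sources used here. The deposited values were 1 peak list and 1 summit list per ChIP library, so peaks were called per library; Input values were not used here. In the deposited lists each peak has the authors' fold ratio over background, a −log10 p, a −log10 q (at least 1.32 in replicate 1 and 1.34 in replicate 2) and a score, the −log10 q times 10 without its decimals. Folds and −log10 p were read within a list. The peak names in the list of replicate 2 carry another number than its title; the list was assigned by its sample.

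Read totals were not used here, and depth is that of the peaks: the median summit pileup was 16 in replicate 1 and 22 in replicate 2. Pileup and background were solved from fold and −log10 p, and a whole-number pileup (relative tolerance 0.0001) fitted 100% of peaks. On 1999 simulated replicate 2 peaks this step recovered 100%. Genes were the 21779 protein-coding rows of the RefSeq table of GRCm38.p6, without 340 rows placed in the first 3 Mb of a chromosome, which is a gap in this build. Exons and introns were not assigned. Strand and promoters came from the RefSeq promoter table (17492 of those genes, 80.3%; none on chromosome 18), 1 first-listed start per gene.

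Shares carry exact Clopper-Pearson 95% intervals and folds exact Poisson ones with the background fixed; a share of 0 allows 3 counts of the total. No tests were run, since the rule used both lists and each list is 1 library. The members and gene lists were chosen with earlier results of these data known. Named by rule were the 20 strongest members by −log10 p that add a gene, up to 4 added genes per class, 15 genes of interest and the sites nearest each threshold. Some genes of these lists are counted but not reported by name here. Alternatives covered the window, the q minimum, overlap, peak position, gene assignment, list length, background and gene starts, and, added after seeing the data, agreement at the gene and chromosome X. Python 3.11.15, numpy 2.4.6, pandas 2.3.3, scipy 1.17.1 and matplotlib 3.10.9 were used.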

Additional observations from a re-analysis of the deposited data

How the results depend on the processing

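Over 13 alternatives, 2 of them chosen after seeing the data, 727 of 766 values stayed within the spread set for them and 39 moved. Members numbered 1614 when only replicate 2 peaks with a −log10 q of at least 5 were kept and 1338 when replicate 2 was cut to the length of replicate 1, and added genes 1909 and 1600. Under these 2 settings the added share of bound genes was 39.5% and 36.7% over all genes, 15.8% and 15.1% for splicing factors, 25.9% and 24.2% for the RNA, translation, respiration and chaperone union, and 57.7% and 55% for the neuronal union. For presynaptic genes it was 37.5% under the second. The share over all genes was also 44.6% with a −log10 q of at least 3, 45.8% when a replicate 1 peak elsewhere at the gene counted as agreement, 49.0% with only the nearest gene and 49.3% when overlaps under 50% counted as none. The share of members at a start was 98.1% in a 1 kb window. Each list's share was also set beside that over all genes under the same setting. Of 54 lists with a bound gene and 2 unions, 43 changed side under no setting that gave them a value, 5 of which had no value under 1 or 2 settings, and tubulins, kinesins and dyneins did so under 6 settings. Lists with all or none of their few bound genes added could hardly change side.

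No paired analysis was possible because no result comes from a test and the Input libraries have no values here. Leaving out a replicate was not possible either, since the rule needs both lists. The low pileups of most members, with quartiles of 16 and 23 in a range of 11 to 158, limit what single sites show.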

Other observations

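Genes of trafficking, autophagy and transport were counted in further lists. Of 94 Rab GTPase and Vps genes, 33 were shared and 21 added (38.9% of bound genes, 25.9 to 53.1), and the strongest added one was Vps51, a tethering factor of the endosome to Golgi route, with a fold of 6.69. Of 41 genes of the V-ATPase and of autophagy, 12 were shared and 10 added (45.5%, 24.4 to 67.8), led by the proton pump subunit Atp6v1g1 with 7.21 and by Atg13, of the complex that starts autophagy, with 6.13. Of 40 nuclear pore and transport genes, 17 were shared and 11 added (39.3%, 21.5 to 59.4), with Nup88 at 8.79 and Nup214 at 6.35. Of 71 tubulins, kinesins and dyneins, 17 were shared and 16 added (48.5%, 30.8 to 66.5), and Kif5a, a kinesin of axonal transport, had a fold of 5.51. Of 60 cilium and centrosome genes, 14 were shared and 16 added (53.3%, 34.3 to 71.7), with Cep63 at 6.24 and the Bardet-Biedl gene Bbs2 at 5.0.

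General transcription and signalling lists stood below the 47.4% over all genes, with intervals that spanned it. Of 104 general transcription factor, Mediator and RNA polymerase genes, 37 were shared and 26 added (41.3%, 29.0 to 54.4), led by the Mediator subunit Med1 with a fold of 6.91 and the RNA polymerase III subunit Polr3e with 5.52. Of 77 protein phosphatase subunits, 26 were shared and 19 added (42.2%, 27.7 to 57.8), led by Ppp3r1, the regulatory subunit of calcineurin, with 7.13. Of 43 MAP kinase cascade genes, 14 were shared and 6 added, with folds of 4.43 or less. Of 44 SWI/SNF, CHD, ISWI and HDAC genes, 19 were shared and 11 added (36.7%, 19.9 to 56.1), with the histone deacetylase Hdac5 at 6.01. Replication-dependent histone genes stood above that value, also with an interval that spanned it. Of 64, 4 were shared and 8 added (66.7%, 34.9 to 90.1), which is 12.5% of the list (5.55 to 23.2). Only 4 of these 8 were the coding gene nearest to their peak.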
